A study of Mus musculus with 15 samples.

Results

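The regions described here lie outside annotated genes on chromosomes 1 to 19. They are the rows of a table of differential BAZ1B regions, cocaine against saline, that the authors annotated as other intergenic or as gene desert. The rule kept 220 of the table's 381 regions, 127 other intergenic and 93 gene desert, in both directions. The sources used here do not give the distances that separate these annotation classes, and none of the 220 carries a gene name or a distance to a start site. Coordinates are mm9. No genome of that build was used here, so no sequence is shown.

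BAZ1B, also called WSTF, was profiled by chromatin immunoprecipitation followed by sequencing (ChIP-seq) in the nucleus accumbens of C57BL/6J male mice aged 7 to 8 weeks. The cocaine group had daily intraperitoneal injections of cocaine at 20 mg/kg in the home cage, and the saline group had daily saline; how many injections is not stated in the labels. Each group had 3 libraries, and each library pooled bilateral punches of several mice, at most 10, so that differences between single animals and between cell types of the tissue are averaged within it. The series holds 15 samples, and its 9 social defeat samples were not analysed here. The table lists differential regions only, so the tissue label could not be checked against marker genes.

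BAZ1B is a bromodomain protein best known as the partner of the ISWI-type remodeling ATPase SNF2H in the WICH complex, which slides nucleosomes and has been tied to replication, DNA damage signalling and transcription. Gene deserts are long stretches without protein-coding genes; some hold distal regulatory elements of faraway genes, and many are rich in repeats. Nucleus accumbens neurons take part in the reward response to cocaine.

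The deposited values are normalized read counts per library. Each value was a whole multiple of the worth of 1 read. The inverse of that worth, which reflects the authors' scaling, is called relative depth here. It was 28.5%, 62.1% and 28.2% of the deepest library in cocaine libraries 1, 2 and 3, against 64.1%, 91.4% and 100% in saline libraries 1, 2 and 3, numbered in listed order. The total depth is unknown, so whether relative depth equals sequenced depth was not tested. In relative depth every cocaine library lay below every saline library. This difference moves with the treatment, and its part in the results below was not tested.

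Regions with more signal in cocaine by the authors' direction are called "gained" here, and those with less are called "lost". The 220 regions split into 114 gained and 106 lost, so 51.8% were gained, beside 58.5% over the whole table. Other intergenic regions held 64 gained and 63 lost, and gene-desert regions held 50 gained and 43 lost. The authors selected every region on the same 6 libraries, so the direction and size of each difference are descriptions, and p-values on them are not independent evidence.

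Most of these regions were small and thinly covered. The best window that the authors give inside a region spans 1000 bp, and it was the whole region in 145 of the 220, or 65.9%. The longest region had 3500 bp. The mean of the higher group was 30.6 normalized reads or less in 211 regions, the low-count regions, and 153.5 or more in the other 9, the high-count regions, with no region between. A limit of 60 separates them. The 211 low-count regions held 107 gained and 104 lost members.

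At low-count gained regions every cocaine library carried more BAZ1B signal than every saline library, in 107 of 107 regions. The groups were also apart at 67 of 67 low-count gained regions in autosomal gene bodies or promoters, called gene regions here. Over all gained regions of the table the share was 89.7%. The authors selected on this contrast, so these counts are descriptions. At the 107 regions signal per kilobase had medians of 19.3, 17.8 and 17.6 normalized reads in cocaine libraries 1, 2 and 3. Those of saline libraries 1, 2 and 3 were 6.02, 7.84 and 7.52. Values ran from 15.8 to 32.9, 13.3 to 26.6 and 12.6 to 35.2 in the cocaine libraries, against 0.86 to 12.9, 3.02 to 13.2 and 2.76 to 12.5 in the saline libraries. The cocaine libraries thus sat close together in their medians, and so did the saline libraries. The difference of the means had a median of 2.70-fold, with a range of 2.15-fold to 4.63-fold. Behind it stood a median of 42 recovered reads over the 3 cocaine libraries, against 35 over the 3 saline libraries. Raw reads were thus more numerous in cocaine only by a small margin, a narrower gap than in the scaled values. The part of the authors' scaling in the size of the difference was not tested.

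At low-count lost regions the order was the reverse in 104 of 104 regions. The groups were also apart at 40 of 40 low-count lost gene regions and at 94.9% of all lost regions of the table. Signal per kilobase had medians of 3.87, 5.13 and 3.73 normalized reads in cocaine libraries 1, 2 and 3, against 14.6, 16.3 and 16.5 in saline libraries 1, 2 and 3. Saline values per kilobase lay between 12.3 and 21.7, and cocaine values ran from 0 to 9.77. The authors selected these regions as higher in saline, so the width of the saline band is a description. The difference of the means had a median of 3.85-fold, with a range of 2.60-fold to 10.3-fold. It rested on a median of 10 reads over the 3 cocaine libraries, against 79 over the 3 saline libraries. Here the gap in raw reads was wider than in the scaled values. A cocaine library stood at 0 in 29 of the 104 regions. These zeros were 14 in cocaine library 1 and 18 in cocaine library 3, the lowest of the 6 in relative depth, with none in cocaine library 2.

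**Figure D1:**
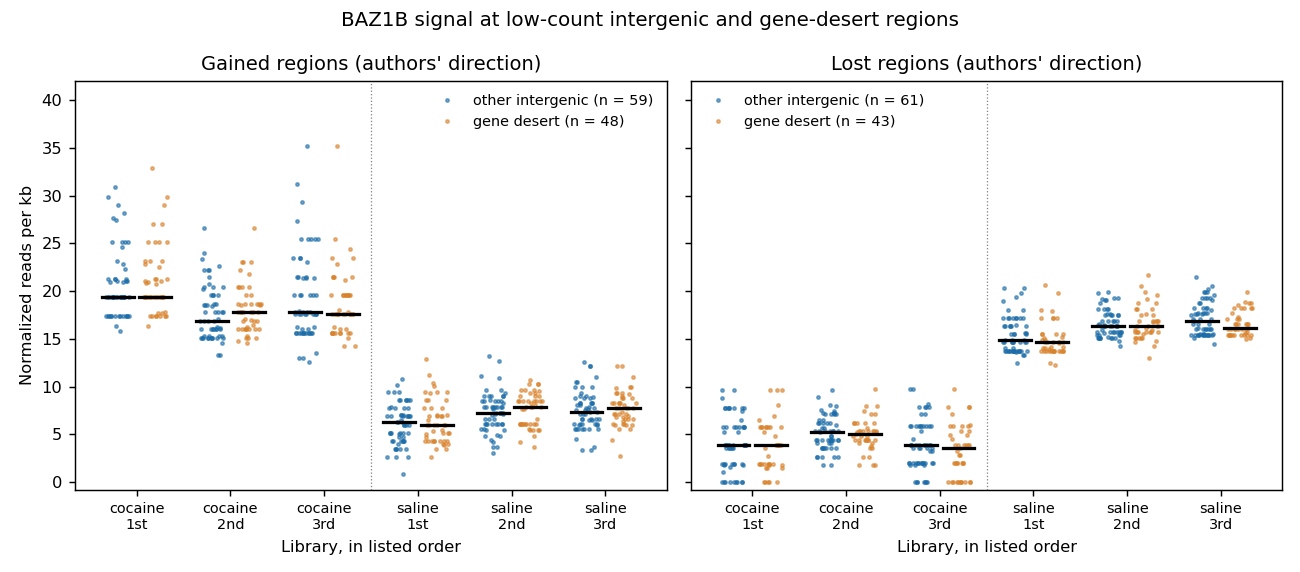
Normalized reads per kb in each of the 6 libraries at the 211 low-count regions, with gained regions on the left and lost regions on the right; each point is a region, blue for other intergenic and orange for gene desert, and black bars are medians. In both classes the medians lie near 18 in cocaine and 7 in saline at gained regions, and near 4 in cocaine and 16 in saline at lost regions.

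Among gained other intergenic regions with the smallest authors' p, chr8:98133301-98134500 had 25.1, 19.5 and 23.5 normalized reads in the cocaine libraries, against 5.16, 8.45 and 4.41 in the saline libraries. All cocaine values were well above all saline values. The means were 22.7 ± 2.87 and 6.01 ± 2.15 (SD, n = 3 each), a 3.78-fold difference on 47 and 28 reads. A region at chr15:63894901-63895900 had 17.4, 15.1 and 17.6 in cocaine, against 0.86, 6.64 and 3.31 in saline. Its cocaine libraries were alike and its saline libraries were spread, with 1 read in saline library 1. The fold of 4.63 was the largest of any gained region; it was 8.01 without saline library 2. At chr3:92402301-92403300 values were 29.0, 16.9 and 35.2 in cocaine, against 6.02, 7.84 and 11.03 in saline. Here cocaine library 2 lay lowest of its group, still above saline, and the fold was 3.26. The regions chr12:58629301-58630300 and chr7:132690901-132691900 completed this set with 4.10-fold and 3.84-fold more signal in cocaine.

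In gene deserts the gained set was of the same size. The region chr7:76122701-76124000 had 21.3, 23.1 and 23.5 normalized reads in the cocaine libraries, against 5.16, 7.84 and 8.82 in the saline libraries. The cocaine values were close together and well above all saline values, with means of 22.6 ± 1.17 and 7.27 ± 1.89 (SD, n = 3 each) and a 3.11-fold difference. At chr1:28554801-28555800 values were 23.2, 15.99 and 15.6 in cocaine, against 6.88, 4.83 and 2.76 in saline. Cocaine library 1 stood above its group there, and the fold was 3.79. The remaining 3 regions, chr11:47703801-47704800, chr17:94253401-94254400 and chr7:32122501-32123800, were 3.70-fold, 3.02-fold and 2.89-fold higher in cocaine.

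Among lost other intergenic regions the smallest authors' p belonged to chr11:3096301-3097300, with 702 cocaine and 1488 saline reads and equal group means. It is described below with the high-count regions. The others of this set rested on very few cocaine reads. At chr16:16163201-16165100 the libraries had 1.93, 14.2 and 0 normalized reads in cocaine, against 31.0, 29.0 and 32.0 in saline. Nearly all cocaine signal came from library 2. The 5.69-fold difference became 31.7-fold without that library, on 1 remaining cocaine read (95% counting interval 5.57 to 1254), and 3.80-fold without cocaine library 3. The region chr7:112860501-112861600 showed the same layout, with 0, 4.44 and 1.95 in cocaine, against 14.6, 16.9 and 17.1 in saline. Its fold of 7.61 was 16.6 without cocaine library 2, again on 1 read (2.94 to 675), and 5.07 without cocaine library 1 (1.96 to 12.6). At chr1:26493501-26494700 values were 0, 7.10 and 3.91 in cocaine, against 16.3, 19.9 and 19.3 in saline. The fold of 5.05 there was 9.47 without cocaine library 2 (2 reads, 2.59 to 81.0) and 3.36 without cocaine library 1 (1.59 to 6.64). At chr8:4398901-4399900 the cocaine libraries were alike, with 3.87, 3.55 and 1.95, against 13.8, 16.9 and 18.2 in saline, a 5.21-fold difference. Counting intervals here and below are exact and cover counting error only. They belong to the fold of pooled reads, whereas the folds given are ratios of group means.

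The largest loss of any of the 220 regions lay in a gene desert, at chr8:29248801-29249800. It had 0, 4.44 and 0 normalized reads in the cocaine libraries, against 14.6, 15.7 and 15.4 in the saline libraries. Only cocaine library 2 held reads, 5 in all, beside 71 reads over the saline libraries. The fold was 10.3, and it was 6.87 without cocaine library 1 or 3. Without cocaine library 2 no cocaine read remained. With a floor of 3 reads over the group in place of 0, signal was then 5.23-fold lower in cocaine (exact 95% lower limit of the pooled reads 4.16). At chr16:75216201-75217500 values were 1.93, 6.22 and 0 in cocaine, against 18.9, 16.9 and 20.96 in saline. The fold of 6.97 was 19.6 without cocaine library 2 (1 read, 3.42 to 780) and 4.64 without cocaine library 3 (1.90 to 9.32). At chr14:71533201-71534200 cocaine library 1 carried most of the cocaine signal, with 5.80, 1.78 and 0 in cocaine, against 13.8, 15.7 and 15.4 in saline. That fold of 5.92 was 16.8 without cocaine library 1 (2 reads, 3.30 to 104) and 3.95 without cocaine library 3 (2.03 to 15.8). Cocaine values were closer together at chr6:74851101-74852500, with 3.87, 5.33 and 3.91 in cocaine, against 17.2, 21.7 and 20.96 in saline. They too rested on few reads, 2, 6 and 2. The fold of 4.57 was 5.13 without cocaine library 2 (4 reads, 1.97 to 19.5) and 4.32 without cocaine library 1 (2.02 to 9.90). The region chr9:17200101-17201400 was 4.16-fold lower in cocaine.

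Cocaine library 2, which had the highest relative depth of its group, lay nearer to saline than the others at lost regions. At the 104 low-count lost regions its median signal was 0.307 of the saline mean, beside 0.233 and 0.226 in cocaine libraries 1 and 3, and it was the highest of the 3 in 50 regions, beside 27 each for the others. At the 107 low-count gained regions its median was 2.52 times the saline mean, beside 2.91 and 2.59, and it was the lowest of the 3 in 48 regions, beside 14 for library 1 and 45 for library 3. It lay outside the saline range in all 211, as did cocaine libraries 1 and 3. The part of depth in this pattern was not tested.

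The authors' deposited table also gives an enrichment value per group for each region. The denominator that it implies, group mean over enrichment, was lower in cocaine by a nearly constant factor: the ratio cocaine over saline had a median of 0.859 (SD 0.0356 over the 220 regions). Enrichment was therefore set higher in cocaine at equal signal, as at chr11:3096301-3097300, where group means were equal and the authors' deposited table has 1.88 in cocaine and 1.63 in saline. What the denominator is, such as an input library or a local background, the sources used here do not say. In the authors' deposited table the low-count gained regions had a median enrichment of 2.57 in cocaine and 0.79 in saline. Enrichment in saline was below 1 in 74 of these 107 regions, while in cocaine it was below 1 in none and at least 2 in 77. In saline it was below 1 in 45 of 67 low-count gained gene regions and in 132 of all 223 gained regions of the table. In cocaine it was at least 2 in 42 and 135 of these. Low-count lost regions had a median of 0.47 in cocaine and 1.60 in saline in that table. Enrichment in cocaine was below 1 in 97 of these 104, and in 11 of them it was below 1 in saline too. In cocaine it was below 1 in 38 of 40 low-count lost gene regions and in 135 of all 158 lost regions of the table.

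By the same deposited values, most low-count regions thus stood above the denominator in 1 group only, and so did most low-count gene regions. The authors selected on this contrast, so the layout is a description. Enrichment was at least 1 in both groups in 33 of the 107 low-count gained and 7 of the 104 low-count lost regions. Among low-count gene regions it was so in 22 of 67 gained and 2 of 40 lost. The highest value in the authors' deposited table was 9.42 in cocaine, against 3.14 in saline, at the gained other intergenic region chr4:100706401-100707500. It was followed by 9.08 in cocaine, against 2.83 in saline, at the gained gene-desert region chr15:29679001-29680100. Among lost regions the highest saline enrichment in that table lay at chr7:50546601-50547600, with 1.94 in cocaine and 5.32 in saline. These 3 regions were chosen after their values were seen.

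**Figure D2:**
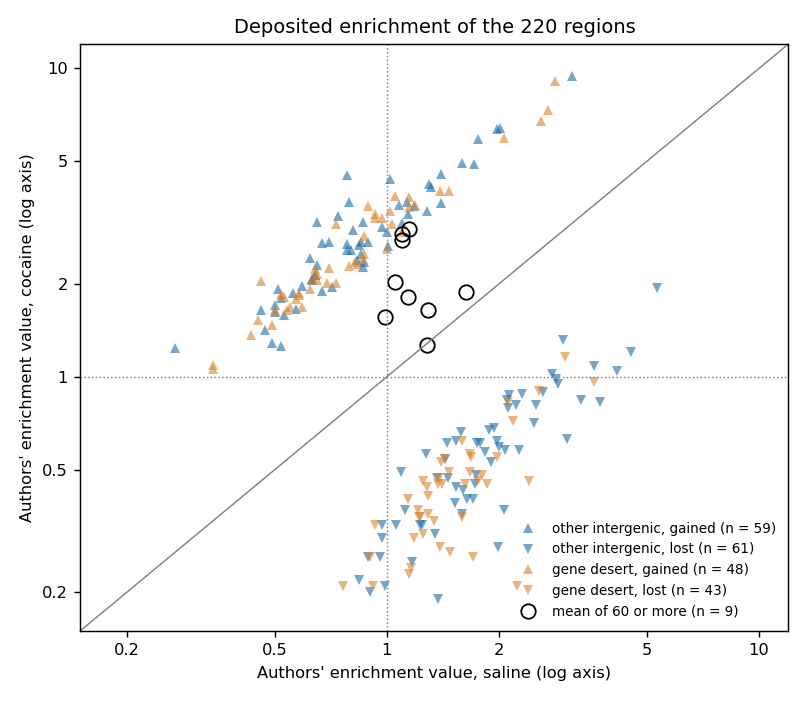
The authors' deposited enrichment of each of the 220 regions in cocaine (vertical log axis) against saline (horizontal log axis); triangles point up for gained and down for lost regions, blue for other intergenic and orange for gene desert, and circles mark the 9 high-count regions. Dotted lines are at 1 and the diagonal is equality: 74 of 107 low-count gained regions lie left of 1 in saline, and 97 of 104 low-count lost regions lie below 1 in cocaine.

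The libraries of the groups did not overlap at 215 of the 220 regions, beside 91.9% of the whole table. By direction they were 110 of 114 gained regions, beside 89.7% in the table, and 105 of 106 lost regions, beside 94.9%; the authors had selected on this contrast, so the count is a description. An adjusted p under 0.05 stands in the authors' deposited table for 218 of the 220, beside 95.5% of all its regions. With limma on log2(value + 1) and Benjamini-Hochberg adjustment over the 14119 tests behind the authors' adjusted p-values, 0 of the 220 regions passed 0.05, as in the whole table (0%). Their smallest adjusted p was 0.053, shared by many regions such as chr8:98133301-98134500 (log2 difference 1.79 ± 0.27, SE). By limma 217 had an unadjusted p under 0.05, beside 347 of the table's 381 regions. On the recovered reads, edgeR's quasi-likelihood test with the same adjustment called 192 of the 220, beside 75.1% of the table. The 192 calls were 96 gained regions, beside 69.1% of gained regions in the table, and 96 lost regions, beside 83.5% of lost regions. At low count the test called 190 of the 211 regions, or 90.0%, beside 92 of 107 gene regions, or 86.0%. By direction it called 87.9% of low-count gained regions, beside 83.6% in gene regions, and 92.3% of low-count lost regions, beside 90%. At an unadjusted p under 0.05 by that test stood 218 of the 220, beside 348 of the table's 381 regions. The smallest edgeR adjusted p was 0.0255.

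The edgeR calls depended on which library was left out. Without cocaine library 1, cocaine library 3 or any single saline library, edgeR called 0 of the 220 regions and 0 of the table's 381. Its smallest adjusted p-values were then 0.0627 to 0.0849, with 215 to 217 of the 220 at an unadjusted p under 0.05. Without cocaine library 2 edgeR called 106, of which 92 were among the 192, beside 169 of the table's 381 regions. The share of gained calls moved with the scaling. With TMM scaling edgeR called 41 gained and 97 lost regions, against 96 and 96 with the relative depths alone. Over the table it called 185 of 381 regions with TMM scaling, in both directions together. TMM shifted the median of all regions of the table by -0.128 on the log2 scale, cocaine minus saline. In ratios of group means it turned the direction of 0 of the 220 regions and of 10 in the table.

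The 2 annotation classes carried much the same signal at low-count regions. Both had passed the same selection by the authors, so this likeness is a description. The lowest cocaine mean of gained regions was 16.3 normalized reads in gene deserts and 16.7 in other intergenic regions. The lowest saline mean of lost regions was 14.8 and 14.9. Low-count gained regions were a median of 2.67-fold higher in gene deserts and 2.73-fold higher in other intergenic regions, and low-count lost regions were 4.03-fold and 3.83-fold lower. The class medians of single libraries lay close as well, as at gained regions in cocaine library 2, with 17.8 normalized reads per kb in gene deserts and 16.9 in other intergenic regions, and at lost regions in cocaine library 3, with 3.55 and 3.91. Each library's mean signal in gene deserts over that in other intergenic regions gave a test with libraries as the unit. Over gained regions this log2 ratio averaged 0.54 ± 0.22 in cocaine and 0.31 ± 0.18 in saline (SD, n = 3 each), a difference of 0.23 (exact permutation test, two-sided, p = 0.2). Over lost regions it averaged -1.70 ± 0.168 in cocaine and -0.66 ± 0.0435 in saline, a difference of -1.05 (exact p = 0.1, the smallest that 3 against 3 libraries allow).

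Both of these differences rested on the high-count regions. Without the 9 high-count regions the class difference was -0.05 over gained regions (exact p = 0.1) and -0.09 over lost regions (exact p = 0.3). With medians in place of means it was 0.0012 (exact p = 1) and -0.04 (exact p = 0.7). With 3 libraries a group none of these tests can reach 0.05.

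The autosomal regions that the authors placed in gene bodies or promoters, 130 in all, gave the nearest comparison, which was chosen after the data were seen. They held 78 gained and 52 lost regions, so 60% were gained, against 51.8% of the intergenic and gene-desert regions. Over gained regions the log2 ratio of mean signal, intergenic and gene-desert over gene regions, averaged -0.43 ± 0.278 in cocaine and -1.08 ± 0.10 in saline (SD, n = 3 each), a difference of 0.65 (exact permutation test, two-sided, p = 0.1). Over lost regions the difference was -0.92 (exact p = 0.1, again the smallest that 3 against 3 libraries allow). Without high-count regions these differences were 0.04 (exact p = 0.1) and -0.0011 (exact p = 1). Low-count medians were close as well, among regions that had all passed the same selection. Gained regions were 2.70-fold higher in cocaine outside genes and 2.65-fold higher in gene regions. Lost regions were 3.85-fold and 3.96-fold lower.

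The 9 high-count regions formed 7 gained and 2 lost members, and the largest signals of the whole set were an adjacent pair in a gene desert of chromosome 2. At chr2:98505101-98508400 the cocaine libraries had 3782, 1689 and 3873 normalized reads, against 1782, 1280 and 1086 in the saline libraries. At chr2:98501501-98505000, which lies 100 bp away, they had 3019, 1344 and 3025, against 1443, 1117 and 898. In both, cocaine library 2 fell inside the saline range and the other cocaine libraries lay far above it. The recovered reads behind these values did not show that order: at chr2:98505101-98508400 they were 1956, 1902 and 1982 in cocaine, against 2072, 2122 and 1969 in saline, and at chr2:98501501-98505000 they summed to 4622 in cocaine and 5157 in saline. Raw reads were thus nearly level between libraries of unlike relative depth, and fewer in cocaine in total. The excess in cocaine and the place of cocaine library 2 are those of the scaled values. The part of scaling in them was not tested. The scaled folds were 2.25 and 2.14, with adjusted p of 0.0469 and 0.0602 by edgeR's quasi-likelihood test.

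Other high-count gained regions had a like layout after scaling. At the other intergenic region chr9:35111901-35114000 values were 1083, 494 and 1088 in cocaine, against 493, 379 and 322 in saline, a 2.23-fold difference. Cocaine library 2 stood just above the highest saline library there, and edgeR's quasi-likelihood test gave an adjusted p of 0.0371. Its recovered reads were again nearly level, with 560, 556 and 557 in cocaine, against 573, 628 and 583 in saline. At chr9:24345601-24347500 values were 172, 95.02 and 193 in cocaine, against 110.1, 91.1 and 80.0 in saline, and at chr3:8245601-8247300 they were 290.1, 178 and 248, against 185, 179 and 169. Cocaine library 2 was inside the saline range in both, and the folds were 1.64 and 1.34. Reads at the chromosome 9 region were 89, 107 and 99 in cocaine, against 128, 151 and 145 in saline, and those at the chromosome 3 region summed to 477 in cocaine and 818 in saline. At chr17:36621001-36622600 all cocaine libraries were above saline, with 298, 243 and 328 in cocaine, against 216, 219 and 215 in saline, a 1.34-fold difference. Over the 7 high-count gained regions cocaine library 2 had a median of 1.12 times the saline mean, beside 1.84 and 2.06 in cocaine libraries 1 and 3, and it was inside the saline range in 4. The order of these scaled values runs with relative depth, 62.1% in cocaine library 2 and 28.5% and 28.2% in the others, and the part of depth in it was not tested.

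**Figure D3:**
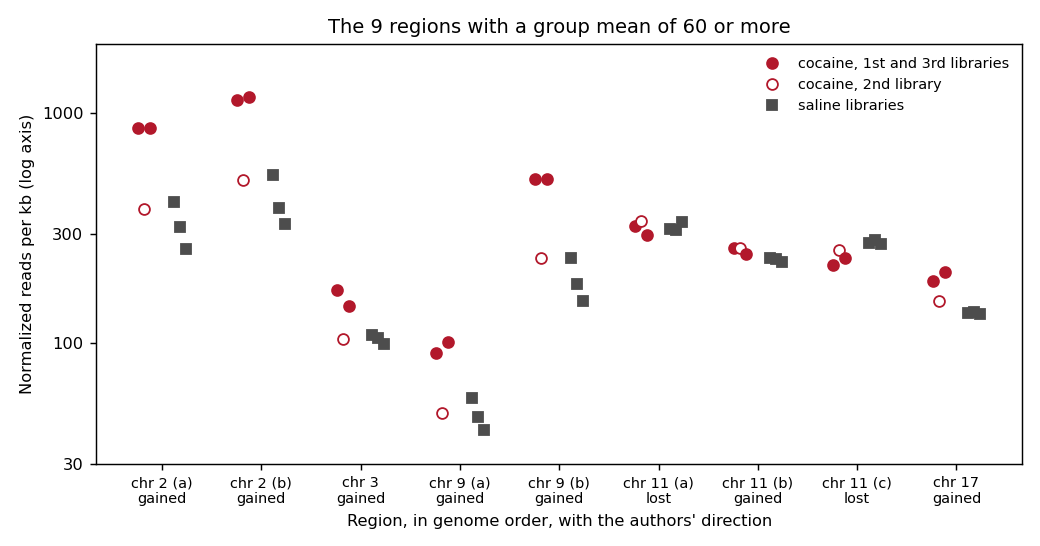
Normalized reads per kb (log axis) at each of the 9 high-count regions, with 3 cocaine libraries (circles, library 2 open) left of 3 saline libraries (squares); letters number regions of the same chromosome in genome order. At the chromosome 2, chromosome 3 and chromosome 9 regions the open circle lies at or near the saline squares, below the filled circles.

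The remaining 3 high-count regions lie within 3.3 kb on chromosome 11, and the first overlaps the second, so they share reads. At chr11:3096301-3097300, listed as lost, the libraries had 323, 341 and 295 normalized reads in cocaine, against 314, 311 and 335 in saline. The groups overlapped fully, with means of 320 ± 23.2 and 320 ± 13.4 (SD, n = 3 each), yet the authors' deposited table gives an adjusted p of 6.93e-07. At chr11:3096701-3097800, listed as gained, values were 284, 286 and 270, against 259, 257 and 249, a 1.10-fold difference. At chr11:3098001-3099600, listed as lost, they were 350, 408 and 377 in cocaine, against 436, 450 and 433 in saline, 1.16-fold lower. Both of these have an adjusted p of 1 in the authors' deposited table. Enrichment in that table was at least 1 in both groups at 8 of the 9 high-count regions, with 2.90 in cocaine and 1.10 in saline at chr2:98505101-98508400.

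The regions were scattered over all autosomes. Chromosome 3 held the most, 25, with 16 gained and 9 lost, and chromosome 19 the fewest, with 1 gained and 1 lost. Gained regions outnumbered lost ones on 12 autosomes and lost outnumbered gained on 5, with 2 even. Lost regions were the more numerous by the widest margins on chromosome 1, with 4 gained and 12 lost, on chromosome 7, with 5 and 11, on chromosome 8, with 5 and 10, and on chromosome 13, with 1 and 7. Gained regions were ahead by the most on chromosome 3, followed by chromosome 18, with 6 gained and 1 lost, and by chromosomes 5 and 15, with 7 and 3, and 6 and 2. These counts are descriptions; chromosomes were not tested and their lengths were not used.

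**Figure D4:**
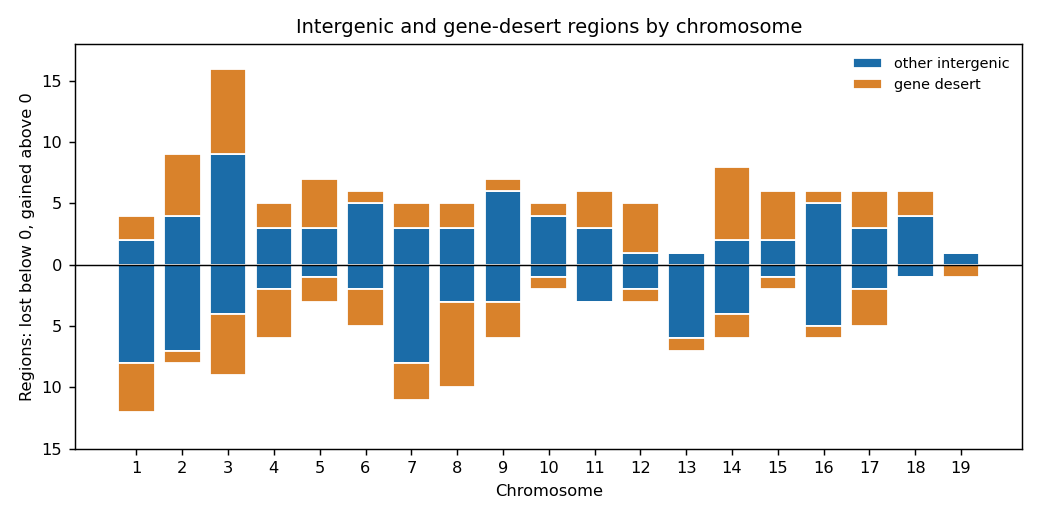
Number of regions on each autosome, gained above 0 and lost below 0, blue for other intergenic and orange for gene desert. Chromosome 3 has the tallest gained bar, 16 regions, and chromosome 1 the deepest lost bar, 12 regions.

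Spacing was wide. The nearest other region of either class lay a median of 3.25 Mb away, with quartiles of 1.05 and 7.31 Mb and a largest distance of 33.1 Mb. Gene-desert regions had a median of 2.88 Mb, against 3.32 Mb for other intergenic regions, and 29.0% against 21.3% of them had a neighbour within 1 Mb. Lost regions had such a neighbour in 29.2%, against 20.2% of gained regions. The 10 kb distance was reached by 5 regions, the chromosome 2 pair and the chromosome 11 triplet, all of them high-count, and by no low-count region.

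**Figure D5:**
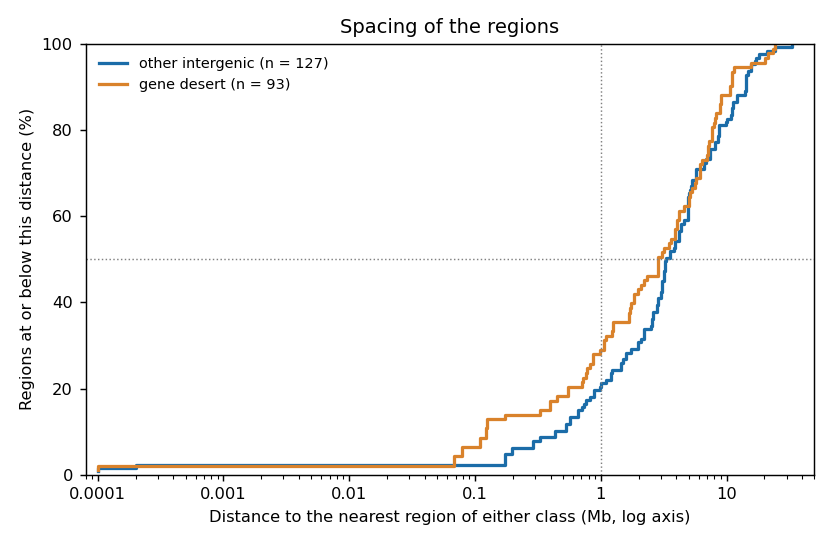
Share of regions (%) whose nearest region of either class lies at or below a given distance (Mb, log axis), in blue for 127 other intergenic and in orange for 93 gene-desert regions; overlapping regions are drawn at the left edge. Dotted lines mark 1 Mb, which 21.3% and 29.0% reach, and 50% of regions, near 3 Mb in both classes.

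Joined at up to 1 Mb, the 220 regions gave 166 single regions, 18 pairs and 6 triplets. Of the 4 triplets outside the chromosome 11 block and the chromosome 2 desert, chr14:80764601-81880900 held 3 gained gene-desert regions and chr7:92486901-93428000 held 3 lost other intergenic regions. The triplets at chr3:6107501-6734500 and chr3:48297501-49843600 mixed directions, with 1 gained and 2 lost, and 2 gained and 1 lost. In the chromosome 2 desert the adjacent pair was joined by another gained region, in a span of 784 kb.

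Neighbouring low-count regions were also compared by direction, over the 188 pairs that follow each other on a chromosome with no high-count member. Of these, 84 pairs, or 44.7%, shared a direction. Among the 9 pairs up to 300 kb apart, 7 shared it, 6 as lost and 1 as gained. From 300 kb to 1 Mb it was 7 of 16 pairs, from 1 to 5 Mb 18 of 52, and beyond 5 Mb 52 of 111. The closest lost pair lay on chromosome 4, at 18614801 and 18684301, 68.2 kb apart, and the gained pair on chromosome 15, at 29679001 and 29758801, 78.7 kb apart. The 9 pairs are few, the 300 kb limit and these examples were chosen after values were seen, and no test was run on the split.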

How the data were processed

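ChIP-seq libraries of BAZ1B from pooled nucleus accumbens tissue, sheared mostly to 100 to 300 bp and read at 100 bp per the labels' protocols, were analysed as deposited. The submitters' processing notes name mm9 and CASAVA 1.8; the table's name gives diffReps. Its version and thresholds and the aligner stay unstated. Each region's signal was deposited as a normalized read count per library with a group mean, per the file headers. The enrichment value, a ratio, the log2 fold change, the p-value and its adjusted form are the authors' own. The header has 26 names for 30 cells, since each count name covers 3 libraries; libraries are named by listed order.

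Reads were recovered as multiples of each library's worth of 1 read, within 0.1 read. In cocaine library 2 and saline libraries 2 and 3 the smallest listed value is more than 1 read, so recovery there rests on the steps between low values; read-based tests are alternatives only. Fold changes are ratios of group means. limma 3.58.1 was fitted to log2(value + 1) of all 381 regions, with a mean-dependent prior. edgeR 4.0.16 and DESeq2 1.42.0 used recovered reads with relative depths as library sizes or size factors. Log2 class ratios were compared by exact permutation of libraries. These fits and the search for read steps were tested on simulated data. Distances run from end to start, with 0 for overlap.

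Named regions are, per class and direction, the 5 with the smallest authors' p (1 per 5 kb), every region with a higher group mean of 60 or more, and every group within 10 kb. Members, lists and limits were chosen with earlier results of these data known. The labels call the libraries biological replicates.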

Additional observations from a re-analysis of the deposited data

How the results depend on the processing

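limma called 0 of the 220 regions, and 0 of the 74 whose higher group averaged 20 or more. Calls numbered 192 with edgeR, beside 286 of the table's 381 regions, and 138 with edgeR and TMM scaling, beside 185. DESeq2 called 147 (68 gained and 79 lost), beside 217 in the table. A pseudocount of 4 gave 170 (100 gained and 70 lost), beside 252 in the table. Adjusted over the table alone, limma called 217 and edgeR 218, beside 346 and 348 in the table. Leaving out each library gave 0 to 106 calls, beside 0 to 169 in the table, and 0 in every limma fit. The cause of these gaps was not tested. The class difference over gained regions, 0.23, was reversed to -0.051 without high-count regions and ran from 0.15 to 0.35 without each library; over lost regions it ran from -1.13 to -0.97. Against gene regions the ranges without each library were 0.56 to 0.81 and -0.96 to -0.88. The median log2 fold change of gained regions, 1.43, was 1.29 with TMM scaling and 1.32 to 1.49 without each library; that of lost regions, -1.94, was -2.07 and -2.11 to -1.82. Median spacing was 3.59 Mb without high-count regions and 3.32 Mb with 1 region per 5 kb. At chr11:3096301-3097300, where the group means were equal, the log2 change turned from just below 0 to 0.0035 with edgeR (either adjustment), and 0.011 with DESeq2, while edgeR with TMM scaling gave -0.12. It ran from -0.051 to 0.053 without each library, and with edgeR it was 0.056 without cocaine library 3 and 0.038 without saline library 3. No paired analysis was possible because the columns of the 6 libraries have no replicate numbers, so a replicate block was not run. The edgeR fits without a library, its adjustment over the table alone and the comparison with gene regions were chosen after seeing the data. Lost regions rest on a median of 10 cocaine reads, so their folds have wide counting intervals.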
